A study of Arabidopsis thaliana with 12 samples.

Results

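The genes described here are those with the strongest signal among single named genes on an array of Arabidopsis thaliana, the thale cress, in both genotypes studied. Members were chosen by their deposited intensity, so their levels are a description and carry no test. A gene entered if the platform annotation gave its probe exactly 1 gene, if all 12 values were above 0, and if the plain mean of the 12 arrays was at least 2.0. Of 647 genes with 1 gene per probe and all values above 0, 43 reached that mean. The rule leaves out 6 of them (PSBW, LHB1B2, PSB27, PSAN, XERICO and AT3G52960), and 37 members remained, each on a single probe. The 12 arrays comprised 6 of the psaf line, which carries an antisense construct and lacks the photosystem I subunit PSI-F, and 6 of wild type (WT); both are in the Columbia 0 background. Total RNA was measured. The sources used here do not give the antisense promoter, the number of lines, the tissue, the age and growth of the plants, or how many plants each array stands for. PSAF itself was on no probe with 1 named gene, so the labels were not checked by it, and 0 of 37 cell type markers listed for a check of the tissue were on such a probe.

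Photosystem I takes electrons from plastocyanin on the lumenal side of the thylakoid membrane and passes them to ferredoxin on the stromal side, and PSI-F forms part of the plastocyanin docking site. Reduced ferredoxin feeds NADPH production and also the chloroplast NAD(P)H dehydrogenase-like (NDH) complex, which returns electrons to the plastoquinone pool and associates with photosystem I. Most proteins of these pathways are encoded in the nucleus and imported into the chloroplast. In green tissue their transcripts are among those known to be highly expressed.

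Intensities were on the authors' own scale, on which a typical probe read well below 1. The median probe intensity of an array was 0.416 to 0.459 in psaf and 0.536 to 0.569 in WT, and 279 probes in all had a mean of at least 2.0 with all values above 0. Of these, 61 were assigned to several genes and 175 were unnamed here. Within each genotype arrays 1 and 2, 3 and 4, and 5 and 6 were close to each other: 2 arrays of such a close pair differed by a robust SD of 0.119 to 0.157 on the log2 scale, against 0.219 to 0.286 for other psaf arrays and 0.255 to 0.432 for other WT arrays. Each pair was therefore counted as 1 sample, and means ± SD are over 3 pair means per genotype. Separate plants are not stated in the labels, so p-values cover the spread between these samples alone. That spread may be technical, and precision is limited by how few arrays there are. Probes differ in length and in how well they hybridise, so the order of intensities is an order of probe signals and not of transcript numbers.

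The 37 members together carried 8.3% ± 0.267 of the summed intensity of a psaf array and 7.36% ± 0.348 of that of a WT array (SD, n = 3 pair means each). The psaf arrays lay between 8.08% and 8.67%, and the WT arrays between 7.02% and 7.84%, so the arrays of the genotypes did not overlap on the deposited scale. The order turned under other scalings: cyclic loess gave 7.57% ± 0.252 in psaf and 8.26% ± 0.447 in WT, again with no overlap, and quantile normalisation gave 7.57% ± 0.234 in psaf and 8.12% ± 0.337 in WT, with overlap. The signal was concentrated on few genes. The brightest 3 members carried 42.7% ± 1.61 of the summed member intensity in psaf and 44.0% ± 1.95 in WT. For the brightest 5 the shares were 56.5% ± 0.807 in psaf and 55.5% ± 1.47 in WT. In all, 7 members had a mean above 10, 13 lay between 3 and 10, and 17 lay between 2 and 3. The highest member value on any array was 63.8, so no member reached the ceiling of 100, which 2 other probes did.

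Gene names or functional words in the gene tables were found for 5 of the 37 members, and 32 carried a locus tag alone, to which no role is given here. The 5 genes with a name carried 9.64% ± 0.292 of the summed member intensity in psaf and 10.4% ± 1.17 in WT. Most of the signal therefore lay on genes whose function is not named in the annotation used here: the share of the 32 locus tags was 90.4% ± 0.292 in psaf and 89.6% ± 1.17 in WT. When the 6 genes that the rule leaves out were added back, 4 photosystem and antenna genes among them (PSBW, LHB1B2, PSB27 and PSAN) carried 15.7% ± 1.29 of the summed intensity of the 43 genes in psaf and 14.7% ± 1.09 in WT.

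Differences between genotypes were tested on log2 intensities with limma, a linear model that shares the variance across probes, over the 3 pair means of each genotype. P-values were 2-sided and adjusted by Benjamini-Hochberg over all 3277 tested probes, of which 38.6% had an adjusted p under 0.05 (4.76% higher and 33.8% lower in psaf). Since the authors' scaling is not described, each difference was also computed after quantile normalisation, after median centring of each array and after cyclic loess. The rule chose members by the mean over both genotypes and so did not use this difference, apart from genes near the minimum.

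Among members with a name, none of the 4 genes with a known enzyme, complex or metal-binding role passed the test between genotypes, and CCL was the single one that did. NdhS (AT4G23890), the NDH subunit also called CRR31 that carries a ferredoxin-binding site of the complex, read 12.7, 13.4 and 14.2 on the psaf arrays (lowest, median and highest) and 9.56, 11.6 and 13.3 on the WT arrays. The arrays overlapped, because WT arrays 1 and 2 read 13.3 and 13.2 while WT arrays 5 and 6 read 9.56 and 10.04. The log2 difference was 0.22 ± 0.14 on the deposited scale (SE; limma adjusted p = 0.25), but its sign turned under quantile normalisation (-0.14) and cyclic loess (-0.08). Median centring gave 0.57, which passed (limma adjusted p = 0.0434).

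AT5G58330 encodes the NADP-dependent malate dehydrogenase of the chloroplast, an enzyme activated by thioredoxin that turns oxaloacetate into malate and so exports reducing equivalents. Its intensity was 1.98, 3.48 and 4.01 in psaf and 2.96, 3.25 and 3.57 in WT (lowest, median and highest of 6 arrays). In psaf, array 4 read 1.98 while array 3 of the same close pair read 3.18. The genotypes overlapped fully, with a log2 difference of -0.02 ± 0.18 (limma adjusted p = 0.952). AT1G74470, the geranylgeranyl reductase that makes the phytyl chain of chlorophyll and tocopherol, was at 2.95 ± 0.203 in psaf and 2.65 ± 0.272 in WT (SD, n = 3 pair means). The genotypes overlapped and the log2 difference was 0.16 ± 0.12 (limma adjusted p = 0.337). Median centring gave 0.51, which passed (limma adjusted p = 0.0407). CUTA (AT2G33740), a plant relative of the bacterial CutA proteins that are known for divalent metal tolerance in Escherichia coli, was at 3.56 ± 0.147 in psaf and 3.06 ± 0.131 in WT. Its log2 difference of 0.22 ± 0.10 did not pass (limma adjusted p = 0.125), although each of the 6 psaf arrays exceeded the WT mean, and median centring gave 0.57, which passed (limma adjusted p = 0.0194).

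CCL (CCR-like, AT3G26740), a gene known for an unstable transcript under control of the circadian clock, fell on the deposited scale. Its intensity was 4.95, 5.74 and 6.71 on the psaf arrays and 6.52, 7.5 and 8.95 on the WT arrays (lowest, median and highest). Each of the 6 psaf arrays read less than the WT mean, and the genotypes overlapped only through psaf array 4, at 6.71, and WT array 3, at 6.52. The log2 difference of -0.44 ± 0.14 was close to the threshold (limma adjusted p = 0.0475), reached -0.69 after quantile normalisation and -0.68 after cyclic loess, and was -0.08 under median centring (limma adjusted p = 0.699). The call ended without any close pair except WT arrays 3 and 4 and without any of psaf arrays 1 and 3 and WT arrays 4 and 6, with log2 differences of -0.51 to -0.34. The sources used here do not give the time of day at which plants were taken, and its part in the result was not tested. In bulk RNA, a change in the number of cells of a type and a change in RNA per cell cannot be told apart.

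**Figure D1:**
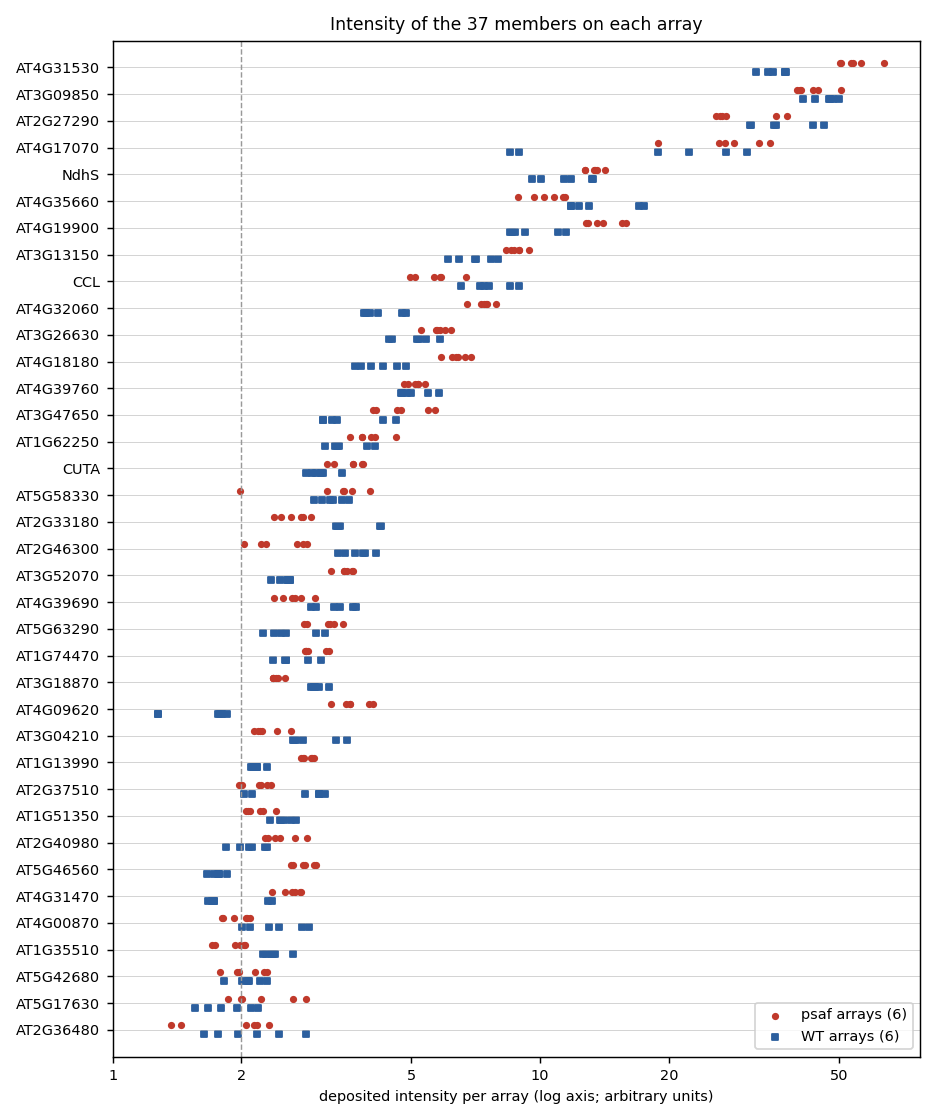
Deposited intensity of each of the 37 members on each of the 6 psaf arrays (red circles) and 6 WT arrays (blue squares), on a log axis, ordered by the mean of the 12 arrays; the dashed line marks the minimum mean of 2.0. AT4G31530 and AT3G09850 are the brightest, and the WT points of AT4G17070 spread from 8.52 to 30.6.

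The brightest members were locus tags without a name. AT4G31530 read 50.2, 53.7 and 63.8 on the psaf arrays and 32.02, 36.2 and 37.7 on the WT arrays (lowest, median and highest), with no overlap. It rose by a log2 difference of 0.62 ± 0.11 on the deposited scale (limma adjusted p = 0.00825) and passed without each close pair, but it did not pass under quantile normalisation (0.30, adjusted p = 0.124) or cyclic loess (0.19, adjusted p = 0.219). Its share of the summed member intensity was 18.2% ± 0.951 in psaf and 13.2% ± 1.03 in WT. AT3G09850, next in mean intensity, was at 43.3 ± 3.74 in psaf and 46.5 ± 3.45 in WT, and the arrays overlapped. It was among the 4 members with the narrowest spread over the 12 arrays (SD of log2 0.12). Its log2 difference was -0.10 on the deposited scale (limma adjusted p = 0.523), -0.45 and -0.52 under quantile normalisation and cyclic loess, where it passed (adjusted p = 0.0314 and 0.0193), and 0.25 under median centring.

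AT2G27290 was at 29.9 ± 5.94 in psaf and 37.1 ± 6.98 in WT, and arrays 3 and 4 were the highest in both genotypes, at 35.7 and 37.8 in psaf and 43.4 and 46.2 in WT. The log2 difference of -0.31 ± 0.20 did not pass (limma adjusted p = 0.246). Quantile normalisation gave -0.61 and cyclic loess -0.71, and it passed in both (adjusted p = 0.0434 and 0.0432), while median centring gave 0.04. AT4G17070 had the widest spread of all members (SD of log2 over the 12 arrays 0.68). WT arrays 1 and 2 read 8.52 and 8.91, arrays 3 and 4 read 18.9 and 22.3, and arrays 5 and 6 read 30.6 and 27.3, whereas the psaf arrays lay between 18.9 and 34.5. The log2 difference of 0.67 ± 0.43 did not pass (limma adjusted p = 0.259), and without WT arrays 1 and 2 it was 0.17.

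AT4G35660 was at 10.4 ± 1.06 in psaf and 13.9 ± 2.93 in WT. Its arrays did not overlap between genotypes, the highest psaf array reading 11.4 and the lowest WT array 11.8, yet the WT pair of arrays 3 and 4 stood apart at 17.5 and 17.03. The log2 difference was -0.41 ± 0.17 (limma adjusted p = 0.109 on the deposited scale). It passed under quantile normalisation (-0.66, adjusted p = 0.0256) and cyclic loess (-0.71, adjusted p = 0.0318), and did not under median centring (-0.05, adjusted p = 0.854). AT4G19900 rose on the deposited scale, with 12.8, 13.8 and 15.9 on the psaf arrays and 8.5, 8.97 and 11.5 on the WT arrays (log2 difference 0.57 ± 0.15, limma adjusted p = 0.0265). Arrays 3 and 4 were its highest in both genotypes. It did not pass under quantile normalisation (0.21, adjusted p = 0.301) or cyclic loess (0.27, adjusted p = 0.218), and the call ended without any close pair except WT arrays 3 and 4, at log2 differences of 0.49 to 0.63. AT3G13150 was at 8.8 ± 0.372 in psaf and 7.06 ± 0.785 in WT without overlap of arrays. Its log2 difference of 0.32 ± 0.12 missed the threshold (limma adjusted p = 0.0768). Of all removals of a close pair, that of WT arrays 1 and 2 alone brought it past (0.40, limma adjusted p = 0.0487). The difference came to 0.00499 after quantile normalisation and 0.06 after cyclic loess, while median centring gave 0.68, which passed (limma adjusted p = 0.0172).

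Over all members, the comparison of genotypes on the deposited scale gave 12 of 37 past the threshold in limma with pairs averaged, 8 higher and 4 lower in psaf. That share of the members, 32.4%, lay near the 38.6% over all tested probes, with more of it higher and less of it lower than the 4.76% and 33.8% there. The median log2 difference of the members was 0.18, beside -0.29 over all tested probes. Other bright probes were alike in this: the 242 other probes with a mean of at least 2.0 had a median of 0.22, with 26.4% of them higher and 15.7% lower, against 21.6% and 10.8% of the members. Of the 37 members, 30 had a mean of at least 2.0 in both genotypes, 4 in psaf alone and 3 in WT alone, and those 7 entered through their brighter genotype. AT4G09620 and AT5G46560 are 2 of the 4 with psaf alone above that mean and are also called, so the count of 8 is partly set by the choice of members.

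The balance depended on the scaling of the arrays. Under quantile normalisation 6 members were higher and 7 lower, and the median of the members was 0.00 beside -0.01 over all tested probes. Under cyclic loess 6 were higher and 8 lower, with a median of 0.02 beside 0.03. Under median centring 19 were higher and none lower, with a median of 0.53 beside 0.06. Other bright probes were again alike: the 242 had a median of 0.58 under median centring, with 44.6% higher and 4.96% lower. Their median was 0.08 under quantile normalisation (16.9% higher, 16.9% lower) and 0.07 under cyclic loess (16.5% higher, 19.0% lower). The background under these scalings was 8.57% higher and 12.7% lower for quantile normalisation, 10.8% and 12.4% for cyclic loess, and 13.1% and 10% for median centring; in either direction it was 21.3%, 23.2% and 23.1% in that order. Median centring added 0.35 to the log2 difference of every member. Without it, the sign was the same on the deposited scale, after quantile normalisation and after cyclic loess for 33 members and differed for 4, which were NdhS, AT3G26630, AT4G39760 and AT5G42680. Arrays of the genotypes did not overlap for 15 members, 9 higher and 6 lower in psaf, where 6.71% and 34.9% of all tested probes did so (41.6% in all). AT4G09620 and AT5G46560 are among the 9, and AT1G35510 is among the 6. Each entered through its brighter genotype, so these counts are partly set by the choice of members. AT4G09620 and AT5G46560 are also among the higher calls under every scaling, to which the same limit applies. With the 12 arrays taken as independent, 27 members passed, 16 higher and 11 lower, where 61.1% of the 3266 probes tested in that fit did so, 11% higher and 50.2% lower.

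**Figure D2:**
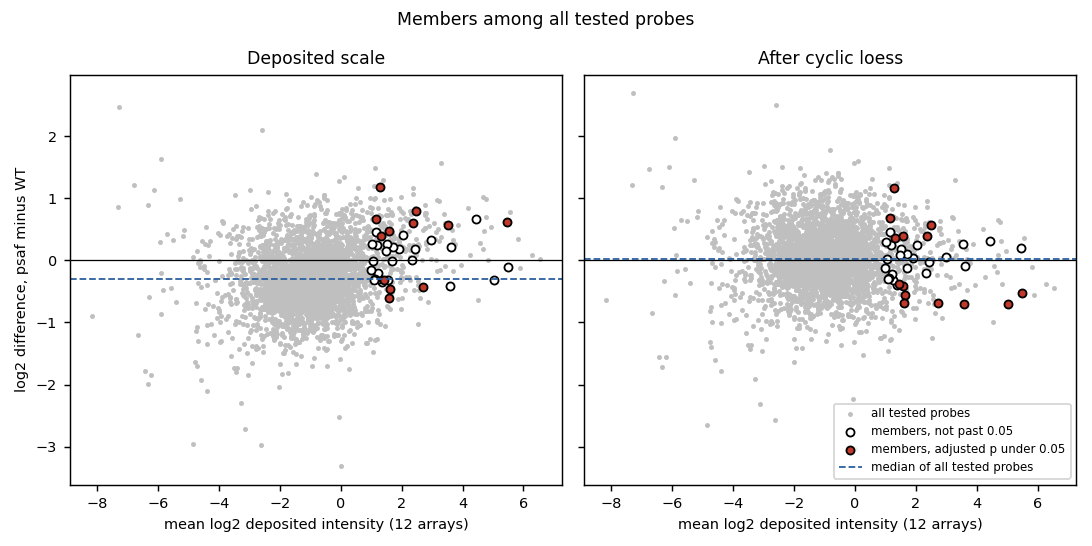
Log2 difference (psaf minus WT) against mean log2 intensity for all 3277 tested probes (grey) and the 37 members (circles, red where the adjusted p was under 0.05), on the deposited scale and after cyclic loess; the dashed line is the median of all tested probes. On the deposited scale the grey median is at -0.29 and 8 of the 12 red points are above 0, and after cyclic loess 6 of 14 are.

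In all 4 scalings 6 members passed, each higher in psaf. No member was lower in all 4, since median centring, which raised every difference by 0.35, left no lower call. Of the 6, AT4G09620 and AT5G46560 reached the minimum mean through psaf alone, so their differences and p-values are not independent of the choice of members. Among all tested probes 13.5% passed in every scaling, 3.97% higher and 9.49% lower. AT4G09620, which averaged 1.63 ± 0.304 in WT, had the largest log2 difference of the members, with 3.25, 3.59 and 4.06 on the psaf arrays and 1.27, 1.77 and 1.85 on the WT arrays (lowest, median and highest). WT arrays 1 and 2 were its lowest, at 1.27 and 1.28, and without them the difference of 1.18 ± 0.17 was 1.02 (limma adjusted p = 0.00435 with all pairs and 0.00485 without that pair). Over the 4 scalings it ran from 1.16 to 1.54. Its rank among all 3439 probes by mean intensity was 141 in psaf and 386 in WT. AT4G32060 rose as well: it read 6.75, 7.44 and 7.87 in psaf against 3.88, 4.09 and 4.84 in WT, a log2 difference of 0.80 ± 0.12 (limma adjusted p = 0.00479). It ranked 62 in psaf and 95 in WT.

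AT5G46560 read 2.62, 2.81 and 3.0 on the psaf arrays and 1.66, 1.77 and 1.85 on the WT arrays, with no close pair standing apart and a WT mean of 1.76 that lay under the minimum. Its log2 difference of 0.67 ± 0.10 (limma adjusted p = 0.00486) was nearly the same under quantile normalisation (0.70) and cyclic loess (0.68). Because AT5G46560 entered through psaf alone, these values are not independent of the choice of members. AT4G18180 was at 5.88, 6.39 and 6.9 in psaf and 3.7, 4.15 and 4.87 in WT. The difference of 0.61 ± 0.12 (limma adjusted p = 0.0113) was 0.40 under cyclic loess. These 4 genes passed without each close pair and without each array. For AT4G09620 and AT5G46560, which entered through psaf alone, those passes are not independent of the choice of members either. AT3G52070 was at 3.5 ± 0.124 in psaf and 2.53 ± 0.105 in WT (log2 difference 0.47 ± 0.10, limma adjusted p = 0.0124), and its call ended without psaf arrays 5 and 6. AT1G13990 was at 2.86 ± 0.0593 in psaf and 2.17 ± 0.0582 in WT (0.39 ± 0.10, limma adjusted p = 0.02). Its call ended without any psaf pair or WT arrays 5 and 6, while the difference stayed between 0.37 and 0.41.

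**Figure D3:**
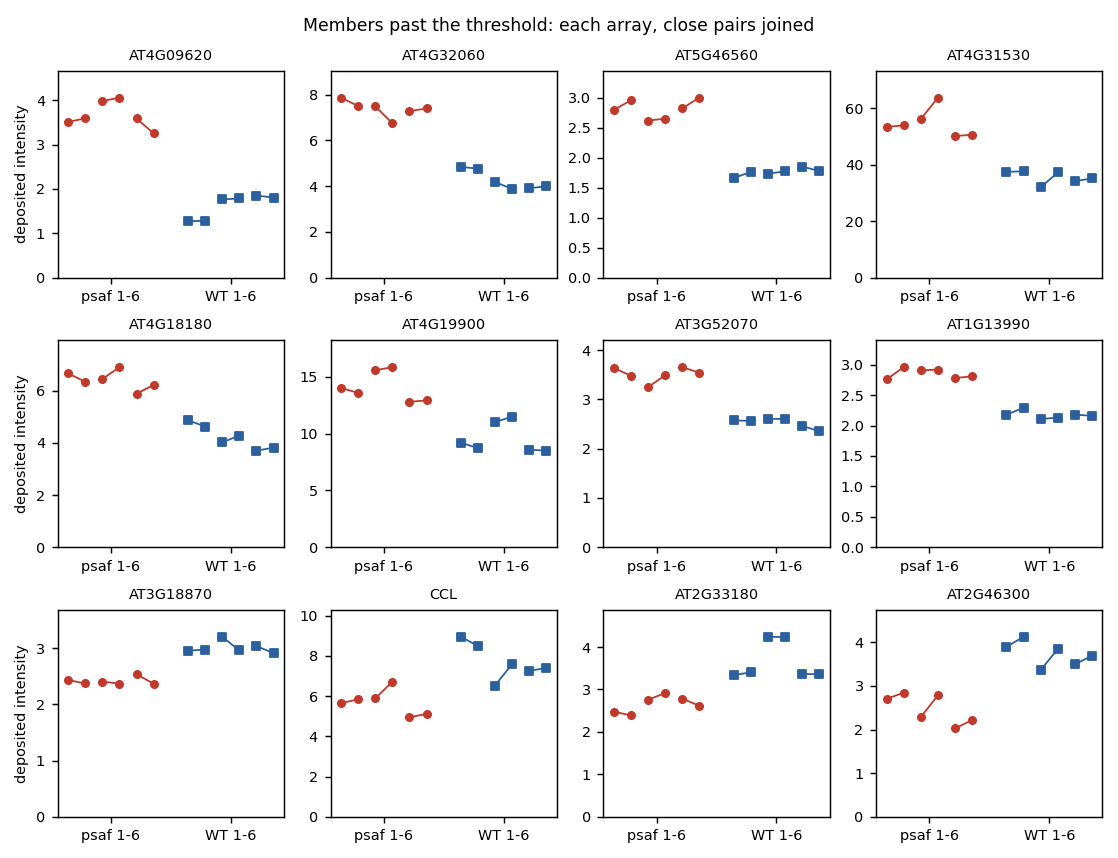
Deposited intensity on each array for the 12 members with an adjusted p under 0.05 on the deposited scale, psaf arrays 1 to 6 (red circles) left of WT arrays 1 to 6 (blue squares); lines join the arrays of a close pair, and each vertical axis starts at 0. For CCL alone among the 12 do the arrays of the genotypes overlap.

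Besides CCL, 3 members fell on the deposited scale, and none of the 4 passed under median centring. AT2G46300 read 2.03, 2.5 and 2.84 on the psaf arrays and 3.37, 3.77 and 4.13 on the WT arrays (log2 difference -0.60 ± 0.13, limma adjusted p = 0.0154). Its difference was -0.69 under both quantile normalisation and cyclic loess and -0.25 under median centring, and the call ended without psaf arrays 5 and 6. AT2G33180 was at 2.66 ± 0.204 in psaf and 3.66 ± 0.503 in WT (log2 difference -0.46 ± 0.14, limma adjusted p = 0.0395). WT arrays 3 and 4 stood apart at 4.24 and 4.23, and the call ended without them, without WT arrays 5 and 6 or without any psaf pair. AT3G18870 was tight in both genotypes, at 2.41 ± 0.0329 in psaf and 3.01 ± 0.0635 in WT (log2 difference -0.32 ± 0.09, limma adjusted p = 0.0385). Its call ended whichever close pair was left out, and without psaf array 6, and its sign turned to 0.04 under median centring.

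**Figure D4:**
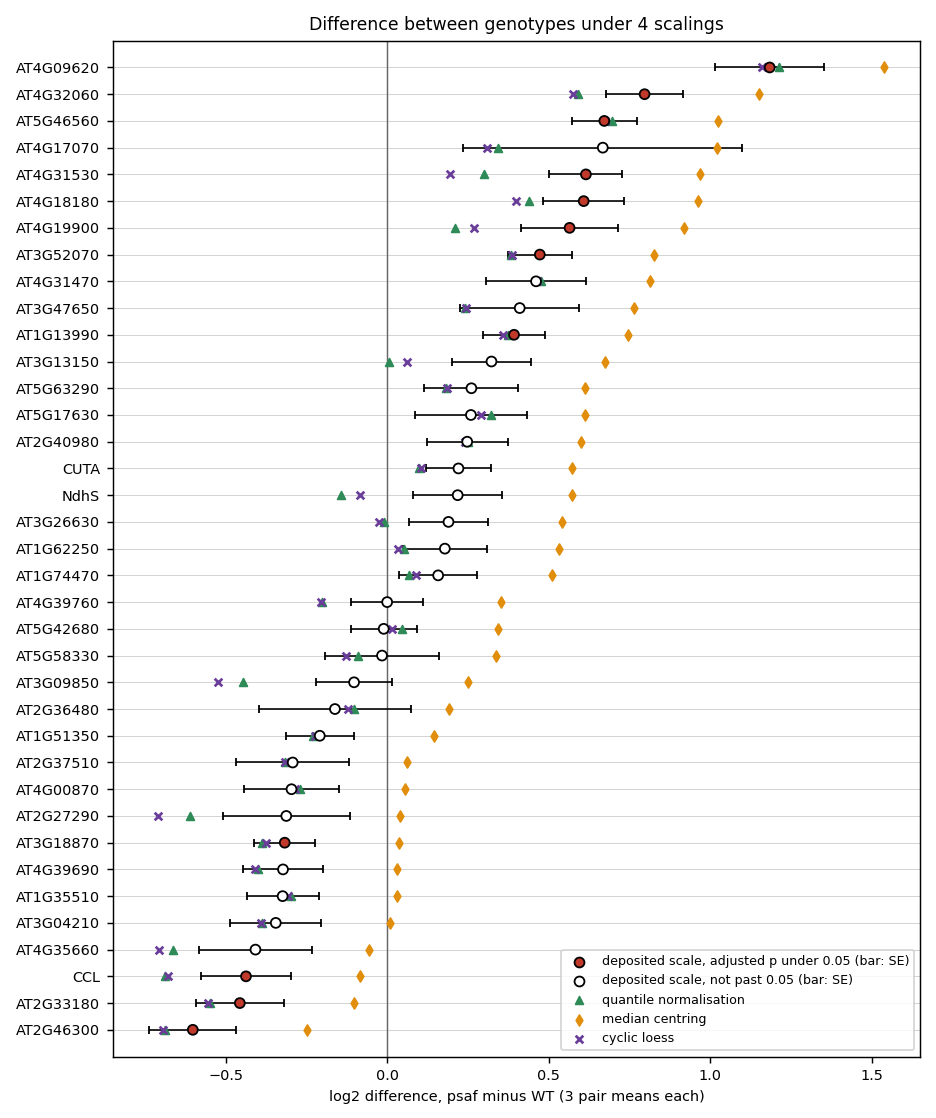
Log2 difference between psaf and WT for each member, on the deposited scale (circles with SE bars, red where the adjusted p was under 0.05) and under 3 other scalings. The points of median centring lie to the right of the others for every member, and the largest difference on the deposited scale is 1.18 for AT4G09620.

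The other 16 members, all locus tags, did not pass on the deposited scale. Between 3 and 10, AT3G26630 was at 5.78 ± 0.276 in psaf and 5.09 ± 0.556 in WT, and AT4G39760 at 5.09 ± 0.216 in psaf and 5.1 ± 0.454 in WT. AT3G47650 was at 4.79 ± 0.743 in psaf and 3.62 ± 0.714 in WT, and AT1G62250 at 4.0 ± 0.298 in psaf and 3.54 ± 0.421 in WT. AT3G47650 is an example of the arrays 3 and 4 of both genotypes reading highest, at 5.67 and 5.48 in psaf and 4.59 and 4.29 in WT. Without WT arrays 3 and 4 its log2 difference of 0.41 was 0.57 and passed (limma adjusted p = 0.0405). That fit kept the high psaf arrays 3 and 4, so its comparison was uneven. No other removal of a close pair brought AT3G47650 past the threshold, and the difference ran from 0.30 to 0.57 over these removals.

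In the band from 2 to 3, members with a higher mean in psaf were AT5G63290 (3.14 ± 0.283 in psaf and 2.63 ± 0.39 in WT), AT2G40980 (2.49 ± 0.232 in psaf and 2.1 ± 0.189 in WT), AT4G31470 (2.62 ± 0.152 in psaf and 1.92 ± 0.364 in WT) and AT5G17630 (2.26 ± 0.412 in psaf and 1.88 ± 0.267 in WT). AT4G31470 came closest to the threshold (limma adjusted p = 0.0558). WT arrays 1 and 2 read 2.37 and 2.31 for it and the other WT arrays 1.67 to 1.73. Without that pair the log2 difference of 0.46 was 0.61 (limma adjusted p = 0.0124), and AT4G31470 passed in no other removal of a close pair. AT4G31470 and AT5G17630 reached the minimum mean through psaf alone. Their differences and p-values, with and without a pair, are therefore not independent of the choice of members. Members with a lower mean in psaf were AT4G39690 (2.65 ± 0.192 in psaf and 3.32 ± 0.329 in WT), AT3G04210 (2.3 ± 0.19 in psaf and 2.94 ± 0.426 in WT), AT2G37510 (2.17 ± 0.163 in psaf and 2.7 ± 0.545 in WT) and AT1G51350 (2.18 ± 0.127 in psaf and 2.52 ± 0.126 in WT). AT2G37510 had WT arrays 1 and 2 at 2.12 and 2.03 and the other WT arrays at 2.82 to 3.14. Without that pair its log2 difference of -0.29 was -0.47 and passed (limma adjusted p = 0.0316), as it did in no other removal of a close pair.

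AT4G00870 (1.96 ± 0.133 in psaf and 2.42 ± 0.386 in WT) and AT1G35510 (1.9 ± 0.159 in psaf and 2.38 ± 0.0961 in WT) were at least 2.0 in WT alone, as was AT2G36480. AT1G35510 did not overlap between genotypes, with a psaf maximum of 2.04 and a WT minimum of 2.24 (limma adjusted p = 0.0599). Because AT1G35510 entered through WT alone, its lack of overlap and its p-value are not independent of the choice of members. The 3 members just above the minimum were AT5G42680 with a mean of 2.08 over the 12 arrays, AT5G17630 with 2.07 and AT2G36480 with 2.03. AT5G42680 was at 2.06 ± 0.127 in psaf and 2.08 ± 0.0618 in WT. AT2G36480 was at 1.92 ± 0.442 in psaf and 2.13 ± 0.473 in WT, with arrays 3 and 4 lowest in both genotypes, at 1.44 and 1.37 in psaf and 1.76 and 1.64 in WT. Just below lay AT5G52810 and AT1G21660, both with a mean of 1.91, and AT4G29890 with 1.87.

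The members varied less between psaf pairs than between WT pairs. The median over members of the SD of log2 between pair means was 0.11 in psaf and 0.16 in WT, and 25 of 37 members had the wider spread in WT. Over all tested probes these medians were 0.14 in psaf and 0.20 in WT. The WT pair of arrays 5 and 6 gave the lowest value of the 3 WT pairs for 21 of 37 members, with a median of -0.14 log2 relative to the other pairs. In psaf, arrays 5 and 6 were lowest for 18 members and arrays 3 and 4 highest for 18. The narrowest spreads over the 12 arrays belonged to AT4G39760 (SD of log2 0.09), AT5G42680 (0.12), AT3G09850 (0.12) and AT1G51350 (0.13). Next to AT4G17070, the widest were those of AT4G09620 (0.65), AT4G32060 (0.43) and AT5G46560 (0.36). Each of these was called higher in psaf, and a spread over the 12 arrays includes that difference by its construction.

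By locus tag, 12 of the 37 members were on chromosome 4 (32.4%), where 17.98% of the 645 candidate genes with a locus tag lay, and 5 members each were on chromosomes 1 and 5. In gene order, 3 sets of neighbouring members had 10 or fewer coding genes between them. AT4G31470 and AT4G31530 had 5 coding genes between them, AT4G39690 and AT4G39760 had 9, and AT3G26630 and CCL had 10. The psaf to WT ratios of these neighbours were 1.38 and 1.53, 0.80 and 1.0, and 1.14 and 0.74, so they were alike only for the first set. AT4G31470 of that set entered through psaf alone, so its ratio is not independent of the choice of members. How often other neighbouring genes are alike was not counted.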

How the data were processed

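Per the deposited table, each of the 3439 probes has 1 linear intensity on every one of the 12 arrays; the sources used here do not say how the authors scanned, background-corrected or scaled them. Gene names came from the platform annotation, which can be old: 692 probes had 1 gene, 870 several and 1877 none here. RefSeq's TAIR10.1 gene table held 690 of the 692, and was used for symbols, gene order and chromosomes. Values of 0 were treated as not measured. Log2 intensities were averaged within close pairs (arrays each nearest to the other by robust SD), and probes with at least 2 pair means per genotype were compared by limma (version 3.58.1, R 4.3.3) with genotype as the only term and a threshold of 0.05. The fit was tested on simulated data. Members, gene lists and this choice of fit were made with earlier results of these data known. The rule for named genes took the brightest 8, up to 6 rises and 6 falls, members past the threshold in all 4 scalings, the 3 genes on either side of the minimum mean, and the 4 widest and 4 narrowest spreads. Each other member is given once with its mean in either genotype. Words for functional classes were searched in the gene tables and matched 3 members (NdhS, AT5G58330 and AT1G74470), all as metabolism. Promoter motifs were not analysed here, since no sequence table was used. Alternatives were 12 separate arrays, blocks, other scalings, filters, variance settings, thresholds and memberships, and leaving out each pair or array.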

Additional observations from a re-analysis of the deposited data

How the results depend on the processing

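The 12 members past the threshold (8 higher, 4 lower) and the 1264 probes (156 higher, 1108 lower) were recomputed under other settings. Taking the 12 arrays as independent gave 27 members (16 higher, 11 lower) and 1997 probes (359 higher). The 12 arrays with the close pair as a random block (correlation 0.76) gave 18 members (11 higher, 7 lower) and 1442 probes (228 higher, 1214 lower). With the label number as a replicate block over 12 arrays there were 26 members (15 higher, 11 lower) and 2148 probes (396 higher, 1752 lower), and with the pair number as a replicate block over pair means 14 members and 1353 probes. Under the block by pair number CCL lost its call (limma adjusted p = 0.0601), while AT3G47650, AT4G39690 and AT3G04210 gained one (0.0353, 0.0469 and 0.0458). Same-numbered arrays correlated at 0.0074 to 0.30 in their deviations, 4 of 6 above 0.1, and same-numbered pair means at -0.017 to 0.21, 2 of 3 above 0.1. Since not every correlation passed 0.1, numbers were used as names only. Quantile normalisation gave 697 probes (281 higher, 416 lower), 7 members lower and a member median of 0.00499 log2. Median centring gave 757 probes (428 higher, 329 lower), 19 members, 19 of them higher and 0 lower, and a member median of 0.53. Cyclic loess gave 760 probes (355 higher, 405 lower), 8 members lower and a member median of 0.0163. The neighbour correction gave 1904 probes (292 higher). A threshold of 0.01 gave 563 probes (61 higher, 502 lower) and 4 members, 4 higher and 0 lower. A minimum mean of 1.5 gave 64 members with 21 past the threshold, 9 of them lower. A minimum of 3 left the same set as the brightest 20 members, with 5 higher and 3 lower. Adding back the 6 genes left out by the rule was chosen after seeing the data.

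Leaving out a close pair or an array gave 5 to 12 members (5 to 9 higher, 0 to 4 lower), a member median of 0.10 to 0.20, and 709 to 1279 probes (83 to 163 higher, 621 to 1120 lower). The lowest counts came without psaf arrays 5 and 6 (5 members, 709 probes) and without psaf arrays 3 and 4 (7 members, 785 probes); without psaf arrays 1 and 2 or WT arrays 5 and 6 there were also 7 members. These fits hold fewer samples, and the cause was not tested further. No background signal was used here, so what dim signal limits was not assessed. Of the 12 called members 5 passed without each close pair and 10 without each array. AT4G09620 and AT5G46560, which entered through psaf alone, are among both. The share of all called probes that did so was not counted, so these counts say nothing particular to the members.

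The share of the members with a name was 11.8% in psaf and 12.03% in WT without the brightest member, and 10.1% in psaf with a minimum mean of 3. Without the brightest member, the share of the brightest 5 was 51.0% in psaf and 54.6% in WT. With a minimum of 3 it was 65.8% in psaf and 65.2% in WT. It was 54.4% in psaf and 57.5% in WT under cyclic loess, and 55.2% in psaf and 57.1% in WT under quantile normalisation. The higher share was thus in WT without the brightest member and under both scalings, but in psaf with all members on the deposited scale.

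The log2 differences of some members changed sign. Quantile normalisation gave NdhS -0.14, AT3G26630 -0.00842, AT4G39760 -0.20 and AT5G42680 0.045, and cyclic loess gave NdhS -0.084, AT3G26630 -0.026, AT4G39760 -0.21 and AT5G42680 0.016; the cause was not tested. Median centring, which by its construction added 0.35 to every member, gave AT3G09850 0.25, AT2G27290 0.041, AT5G58330 0.34, AT4G39690 0.031, AT3G18870 0.036, AT3G04210 0.00826, AT2G37510 0.061, AT1G51350 0.14, AT4G00870 0.057, AT1G35510 0.029, AT5G42680 0.34 and AT2G36480 0.19. The neighbour correction gave AT3G09850 0.14 and AT4G39760 -0.12. Without a pair or an array, AT4G39760 ran from -0.038 to 0.073, AT5G42680 from -0.071 to 0.050, AT5G58330 from -0.14 to 0.16 and AT2G36480 from -0.32 to 0.047.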
